A study of Mus musculus with 6 samples.

Results

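Mitochondrial ribosomal protein genes were examined in mouse AML (acute myeloid leukaemia) cells given the small molecule UNC0638 or its solvent. They were taken as the probe sets whose annotation gives exactly 1 gene symbol, starting with Mrpl or Mrps and followed by a digit, and each gene was represented by its probe set with the highest mean over the 6 arrays. The 77 genes found this way, out of 19937 genes tested, comprise 48 Mrpl genes, named for the large subunit, and 29 Mrps genes, named for the small subunit. The reference gene table names 78 protein-coding genes of this form. The remaining one, Mrpl53, shares its probe set with Ccdc142 and was not tested.

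The first group consists of 3 arrays of A9M cells, which are haematopoietic stem and progenitor cells (HSPCs) transformed with HoxA9 and Meis1, after 5 days with UNC0638, an inhibitor of the histone methyltransferases G9a and GLP. The second consists of 3 arrays of the same A9M cells after 5 days with DMSO. Both groups carry HoxA9 and Meis1 and were grown with serum, IL3, IL6 and SCF. The dose of UNC0638 is not given in the sources used here, and the labels do not state whether arrays came from separate cultures, so p-values measure only how these 6 samples vary, and that variation may be technical. The cells are one transformed population in culture, and a compound alone cannot separate G9a from GLP.

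The mitochondrial ribosome translates the few messenger RNAs of the mitochondrial genome, which encode core subunits of the respiratory chain. All of its proteins are encoded in the nucleus, made in the cytosol and imported, while its ribosomal RNAs come from mitochondrial DNA. Some of its proteins have relatives in bacterial ribosomes and others occur in mitochondria only. Human acute myeloid leukaemia cells are known to be sensitive to inhibitors of mitochondrial translation.

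After UNC0638, 1 of the 77 genes fell and 0 rose at an adjusted p under 0.05 (limma, Benjamini-Hochberg over all genes tested). Over all genes 0.301% were called lower and 0.371% higher by the same rule. The gene called was Mrpl12, which encodes the ribosomal stalk protein that recruits translation factors and which is also known to bind the mitochondrial RNA polymerase. The remaining 76 did not pass. Their differences leaned to one side: 68 of the 77 lay below 0, against 46.1% of all genes. The median log2 difference was -0.22, against 0.012 over all genes. At an unadjusted limma p under 0.05, 32 members were lower and 0 were higher, where 6.21% and 6.47% of all genes were. In 27 members every UNC0638 array lay below every DMSO array, and in 0 above, against 7.4% and 9.59% of all genes. In RNA from a whole culture, fewer cells of a kind that uses these genes and less RNA per cell cannot be told apart.

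**Figure D1:**
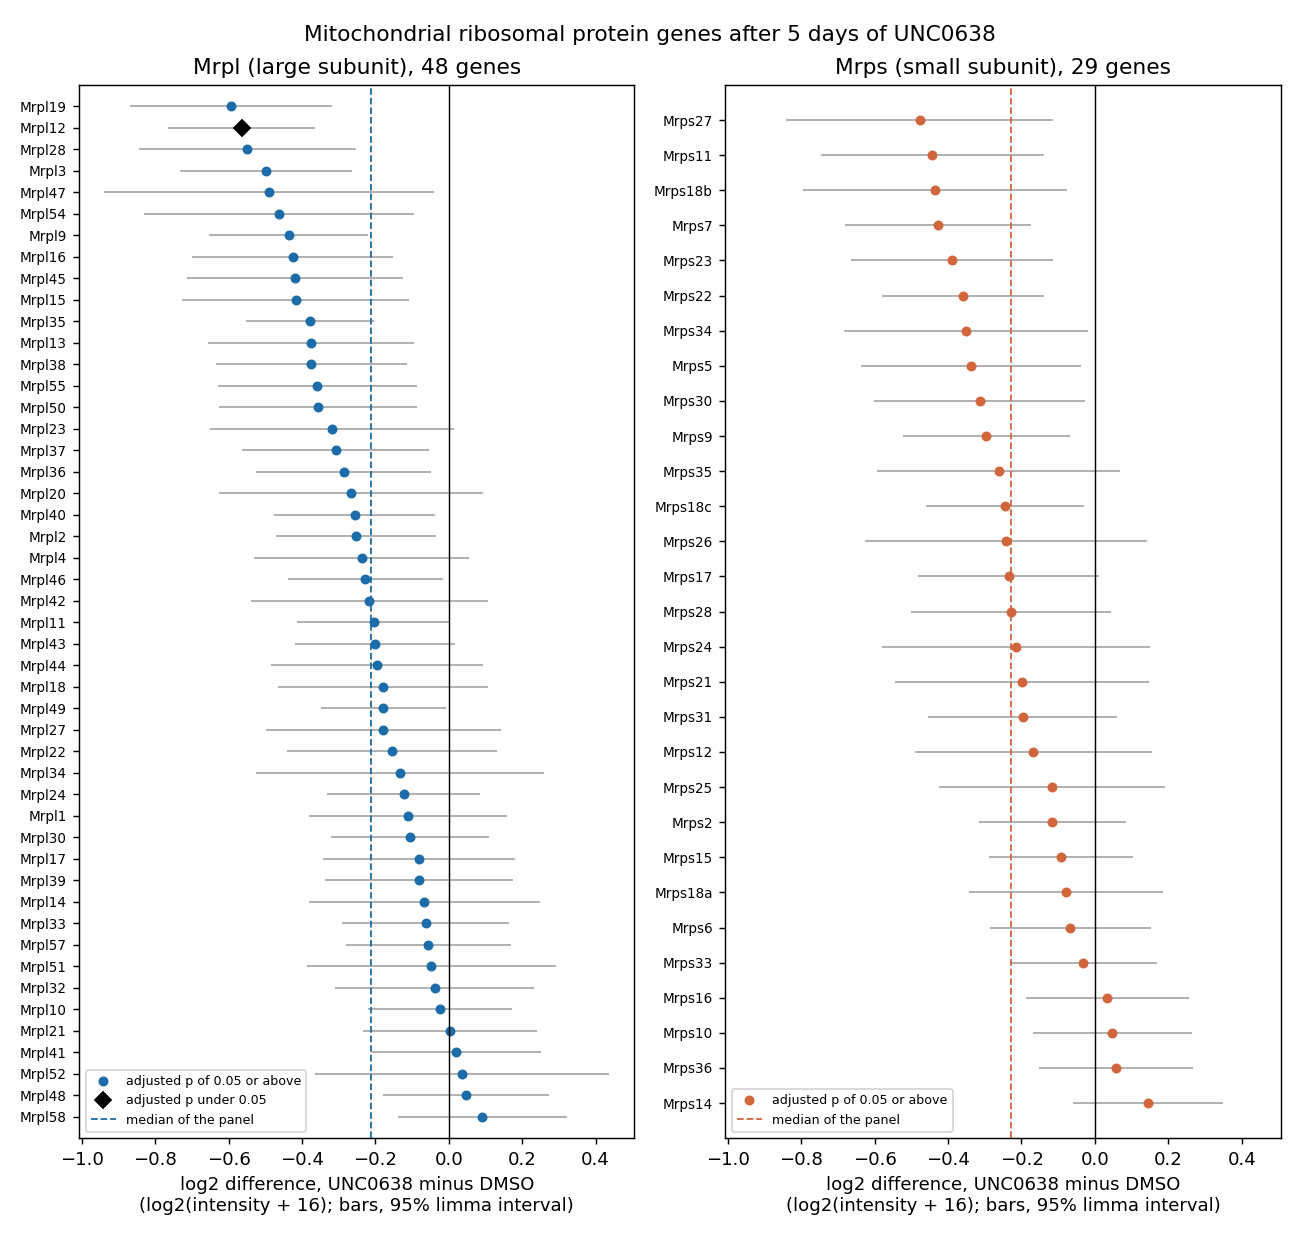
Log2 difference (UNC0638 minus DMSO, on log2(intensity + 16)) of each of the 48 Mrpl genes and 29 Mrps genes, ordered by value, with 95% limma intervals and the median of each panel as a dashed line. Mrpl12, drawn as a black diamond, is the gene past the threshold. In 32 genes the interval lies wholly below 0 and in 0 wholly above.

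Mrpl12 had processed intensities of 430.03, 371 and 364 on the UNC0638 arrays, against 573, 598 and 570.4 on the DMSO arrays. The groups did not overlap, and the highest UNC0638 value was the one of replicate 1. The log2 difference was -0.56 (SE 0.088, 95% interval -0.77 to -0.36, limma adjusted p = 0.0361), which is 1.48-fold lower on the log2(intensity + 16) scale. The call was lost without each of the 6 arrays in turn, where the adjusted p ran from 0.0682 without UNC0638 replicate 1 to 0.143 without UNC0638 replicate 2. The difference itself stayed between -0.64 and -0.52 there. The other proteins of the stalk and its base differed less. Mrpl10, the anchor of the stalk, averaged 362 ± 28.9 in UNC0638 cells and 367 ± 13.8 in DMSO cells (SD, n = 3 each, log2 difference -0.023). Mrpl11, at the base of the stalk, averaged 1303 ± 84.3 in UNC0638 cells and 1505 ± 120.4 in DMSO cells (SD, n = 3 each, log2 difference -0.20, limma adjusted p = 0.403), and its groups did not overlap.

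Other members with low differences came close to the threshold without passing it. Mrpl19, a relative of a bacterial large-subunit protein, had intensities of 242, 234 and 310.4 in UNC0638 cells, against 413, 430.02 and 361 in DMSO cells. All 3 UNC0638 values lay below the DMSO values, and the log2 difference of -0.59 (SE 0.12, limma adjusted p = 0.0801) was the lowest of all members. Mrpl3, whose bacterial relative reaches toward the peptidyl transferase centre, had 335, 284 and 265 in UNC0638 cells, against 429.97, 444 and 390.5 in DMSO cells. These groups did not overlap either (log2 difference -0.50, SE 0.10, limma adjusted p = 0.0816). Mrpl28 had 183, 144 and 175 in UNC0638 cells, against 259.7, 289 and 210.4 in DMSO cells. The groups were apart, with a wider spread between DMSO arrays (log2 difference -0.55, SE 0.13, limma adjusted p = 0.118). Mrpl35 differed by less but varied little: 565, 582 and 557 in UNC0638 cells, against 786, 725 and 718 in DMSO cells (log2 difference -0.38, SE 0.077, limma adjusted p = 0.0801). Mrpl9 had 155, 188 and 176 in UNC0638 cells, against 221, 247 and 249.7 in DMSO cells. It too had groups that did not overlap (log2 difference -0.44, limma adjusted p = 0.0965). With Mrpl12, these were the members at an adjusted p under 0.1, except Mrpl28. Over the 15 alternative settings Mrpl19 reached 0.0503 at the lowest and 0.236 at the highest.

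**Figure D2:**
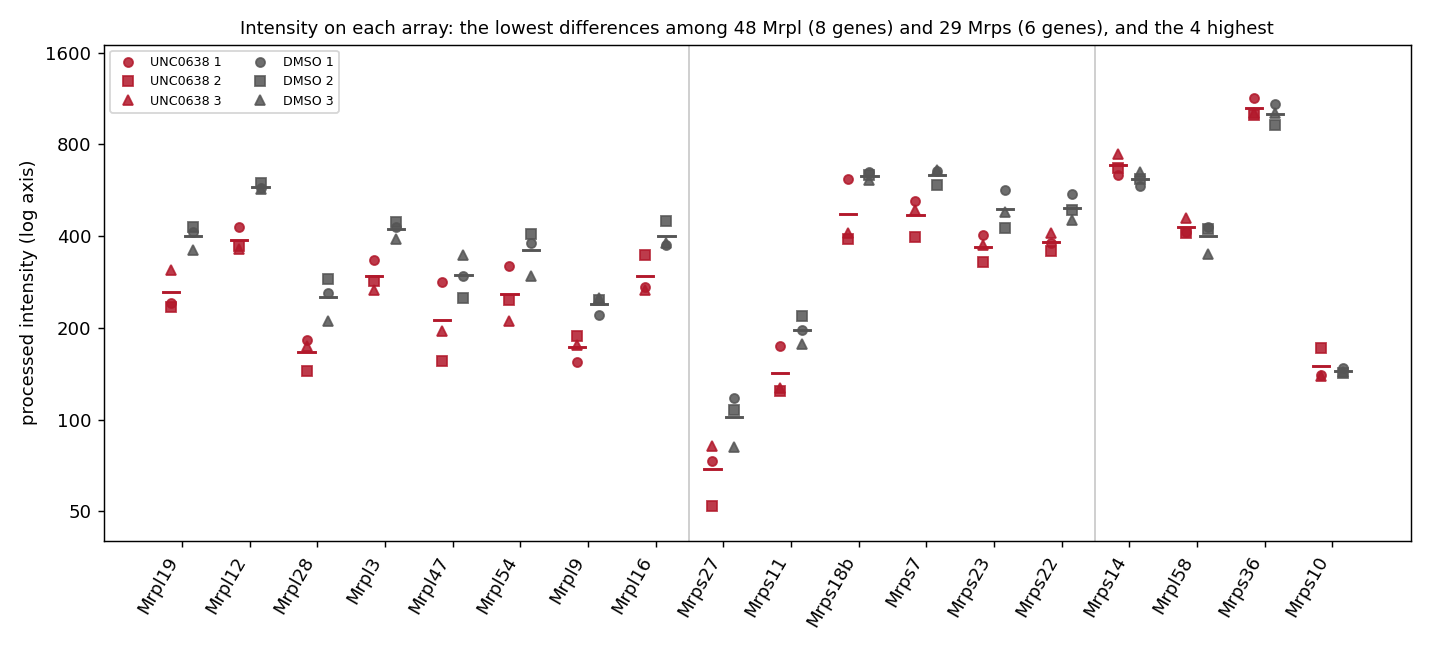
Processed intensity (log axis) on each array for the 8 Mrpl genes and 6 Mrps genes with the lowest log2 differences and for the 4 members with the highest. UNC0638 arrays are red and stand left of the grey DMSO arrays, marker shapes give the replicate number and lines the group means. Mrpl12 has 364 to 430.03 in UNC0638 cells and 570.4 to 598 in DMSO cells, while in Mrps14 the groups overlap.

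Of 3 further large-subunit genes with low differences, Mrpl47 and Mrpl54 overlapped between the groups and Mrpl16 did not. Mrpl47 had 283, 156 and 196 in UNC0638 cells, against 296, 250.3 and 347 in DMSO cells (log2 difference -0.49, SE 0.20, limma adjusted p = 0.346), and UNC0638 replicate 1 lay above one DMSO array. A second probe set of Mrpl47 was at -0.27, and the mean of its probe sets at -0.38. Mrpl54, found in mitochondrial ribosomes and not in bacterial ones, averaged 259 ± 54.9 in UNC0638 cells and 361 ± 58.04 in DMSO cells (SD, n = 3 each, log2 difference -0.46). Mrpl16, whose bacterial relative lies near the site where transfer RNA enters, averaged 295 ± 44.5 in UNC0638 cells and 400.2 ± 42.4 in DMSO cells (SD, n = 3 each, log2 difference -0.43), and its groups were apart.

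Among the 29 Mrps genes 0 were called by limma, 11 were lower at an unadjusted p under 0.05 and 25 lay below 0. The shares over all genes were 0.301% called lower, 0.371% called higher, 6.21% lower at that unadjusted p and 46.1% below 0. Mrps27, a mitochondrion-specific protein of the RNA-binding pentatricopeptide repeat family, had 73.1, 52.1 and 81.96 in UNC0638 cells, against 117, 108 and 81.4 in DMSO cells. The highest UNC0638 value lay just above the lowest DMSO value (log2 difference -0.48, SE 0.16, limma adjusted p = 0.252). Mrps11 had 174, 124 and 127 in UNC0638 cells, against 197, 218 and 176 in DMSO cells, with no overlap (log2 difference -0.44, SE 0.13, limma adjusted p = 0.202). Mrps7, a protein of the head of the small subunit, had 522, 398 and 488 in UNC0638 cells, against 653, 588 and 659.5 in DMSO cells, also with no overlap (log2 difference -0.43, limma adjusted p = 0.143). Mrps18b shows how 1 array can widen the error. Its 3 UNC0638 values were 617, 389.9 and 410.3, against 648, 634 and 612 in DMSO cells, so UNC0638 replicate 1 lay within the DMSO range (log2 difference -0.44, SE 0.16, limma adjusted p = 0.292). Mrps23 and Mrps22, both specific to mitochondria, had groups that did not overlap. Mrps23 averaged 369 ± 37.8 in UNC0638 cells and 491 ± 70.9 in DMSO cells (SD, n = 3 each, log2 difference -0.39). Mrps22 averaged 382 ± 26.6 in UNC0638 cells and 495 ± 49.5 in DMSO cells (SD, n = 3 each, log2 difference -0.36, limma adjusted p = 0.156).

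The 9 members above 0 were all within the spread between arrays. The highest was Mrps14, of the small-subunit head, with 635, 668 and 746 in UNC0638 cells, against 582, 615 and 650.3 in DMSO cells (log2 difference 0.14, SE 0.090, limma adjusted p = 0.592). Mrpl58, a peptidyl-tRNA hydrolase built into the large subunit that helps release stalled ribosomes, averaged 427 ± 28.4 in UNC0638 cells and 401 ± 43.98 in DMSO cells (SD, n = 3 each, log2 difference 0.092). Mrps10 was at 0.047, and at -0.044 without UNC0638 replicate 2. Mrps36 carries a ribosomal symbol but is now known as a subunit of the 2-oxoglutarate dehydrogenase complex. It averaged 1050 ± 73.6 in UNC0638 cells and 1009 ± 78.5 in DMSO cells (SD, n = 3 each, log2 difference 0.057), and a second probe set of this gene was at -0.014.

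Large and small subunits were set side by side, as the ribosome holds their proteins together in fixed proportion. The median log2 difference was -0.21 over the 48 Mrpl genes and -0.23 over the 29 Mrps genes. Of the Mrpl genes, 43 lay below 0, 21 were lower at an unadjusted limma p under 0.05 and in 20 every UNC0638 array lay below every DMSO array. Of the Mrps genes, these counts were 25, 11 and 7. As shares they were 89.6%, 43.8% and 41.7% of the Mrpl genes and 86.2%, 37.9% and 24.1% of the Mrps genes. The same shares of all genes were 46.1%, 6.21% and 7.4%. Whether the 2 subunits differ in these shares was not tested. The difference between the medians, large minus small, was 0.018. It turned to -0.0032 with a pseudocount of 64, to -0.0011 with array weights and to -0.013 and -0.027 without DMSO replicate 2 or UNC0638 replicate 3, so its sign has no stable reading here. Averaged over the genes of each subunit, the deviation from the DMSO mean was -0.15, -0.30 and -0.24 on the UNC0638 arrays for Mrpl genes and -0.13, -0.27 and -0.22 for Mrps genes. On the DMSO arrays it was 0.025, 0.026 and -0.051 for Mrpl genes and 0.035, 0.033 and -0.068 for Mrps genes. Within both subunits every UNC0638 average lay below every DMSO average, with UNC0638 replicate 1 nearest to DMSO.

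Symbols do not always give the true place. Mrps18a and Mrps30 encode proteins that structures place in the large subunit. Mrps30 had 270.4, 254 and 327 in UNC0638 cells, against 390.3, 302 and 377 in DMSO cells (log2 difference -0.31, limma adjusted p = 0.346), and Mrps18a was at -0.078. With both counted as large and Mrps36 left out, the medians were -0.21 over 50 large-subunit genes and -0.23 over 26 small-subunit genes.

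Grouping by place in the ribosome gave medians below 0 in every class with more than 1 gene, among them -0.25 over 31 large-subunit and -0.24 over 17 small-subunit genes outside the regions described next. The 7 genes counted in the peptide exit region, where the nascent chain leaves, had a median of -0.16 and all lay below 0. This class was assigned by hand and may be incomplete. Mrpl47 (-0.49) and Mrpl32 (-0.039) were counted outside it. Of the 7 genes, Mrpl45, which holds the ribosome at the inner membrane, had 95.8, 89.1 and 130.02 in UNC0638 cells, against 148, 132 and 153 in DMSO cells, with no overlap (log2 difference -0.42, limma adjusted p = 0.213). The 7 genes of the central protuberance, which meets the small subunit and the transfer RNAs, had a median of -0.18, from -0.37 for Mrpl38 to 0.047 for Mrpl48. The 8 genes of the small-subunit head had a median of -0.21 and held both Mrps7 and Mrps14, among the lowest and the highest differences. Mrps12, of the decoding centre, was at -0.17 with overlapping groups. Ancestry was assigned by hand. The median was -0.22 over 46 genes counted as having a relative in bacterial ribosomes, 42 of them below 0. It was -0.22 over 30 genes counted as mitochondrion-specific, 26 of them below 0. Mrps18a and Mrps18b are among these 30, although Mrps18c, of the same symbol family, is among the 46, so the split is approximate.

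**Figure D3:**
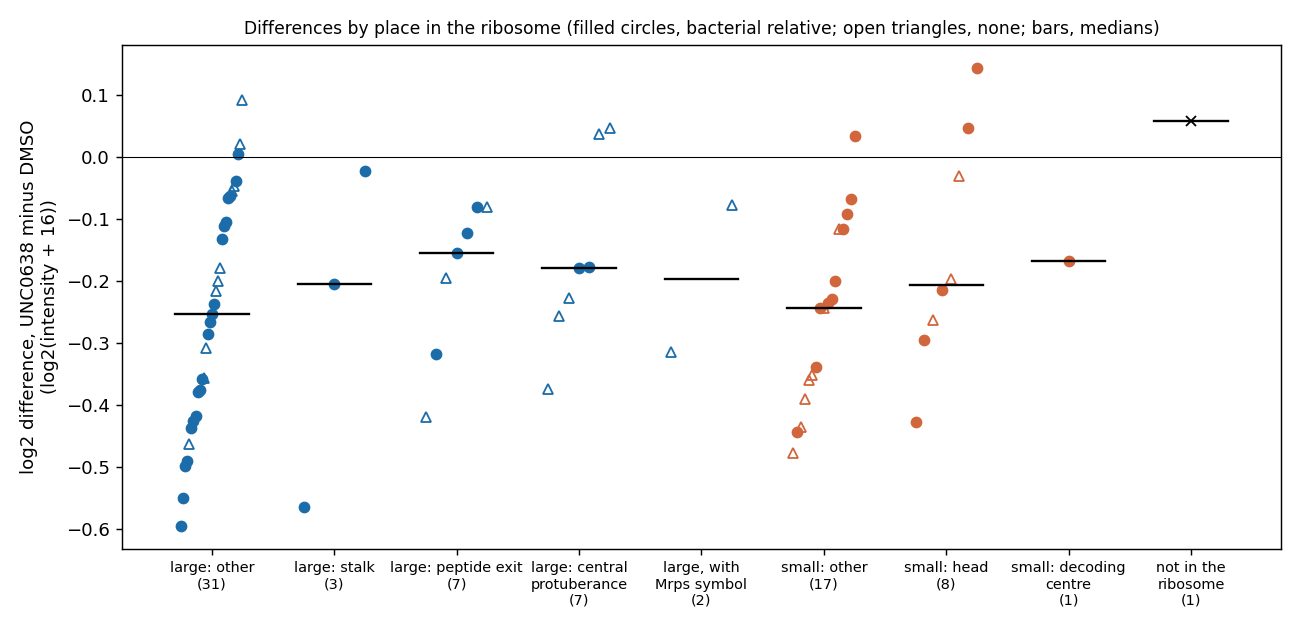
Log2 difference (UNC0638 minus DMSO) of each member by its place in the mitochondrial ribosome, with large-subunit classes in blue, small-subunit classes in orange and the class median as a bar. Filled circles were counted by hand as having a relative in bacterial ribosomes, open triangles were not and the cross is Mrps36. The 3 stalk genes run from -0.56 to -0.023 and the 8 head genes from -0.43 to 0.14.

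The sequence before the start of each gene was described from RefSeq promoter windows (GRCm38.p6, 250 bases before to 50 after the start), found for 68 of the 77 members. Mrpl19 is among the 9 with no entry. The windows are rich in CG dinucleotides, with a median of 21 against 7 over 27025 windows of all genes, and 0 of 68 hold TATAA between 40 and 11 bases before the start, against 4.12% of all. For CG and TATAA the tested genes alone were not computed. An ETS-type motif (CCGGAAG) is in 24 of 68 windows (35.3%, against 9.12% of all). Part of the NRF1 motif (GCGCATG) is in 8 (11.8%, against 4.04%), and part of the YY1 motif (AGATGGC) in 12 (17.6%, against 6.45%). The E-box CACGTG is in 5 (7.35%, against 7.24%) and the Sp1 motif GGGCGG in 34 (50%, against 35.9%). Over the 15613 tested genes with a window the shares were 12.5% for the ETS-type motif, 5.23% for NRF1, 6.23% for YY1, 8.38% for the E-box and 49.9% for Sp1. Both strands were read for each motif, and matches can overlap. Members with and without the ETS-type motif had median log2 differences of -0.16 (24 genes) and -0.22 (44 genes). For the NRF1 motif these medians were -0.081 (8 genes) and -0.20 (60 genes), so its holders lay nearer to 0. They were -0.25 (12 genes) and -0.19 (56 genes) for YY1, -0.27 (5 genes) and -0.18 (63 genes) for the E-box, and -0.21 and -0.20 (34 genes each) for Sp1. These differences were not tested. A match describes letters in this window and no binding.

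The 250 bases before the start are printed for Mrpl12, the gene that fell, for Mrpl3, Mrpl9 and Mrps18b, low members that hold an ETS-type or NRF1 motif and were chosen as examples after their values were seen, and for Mrps14, the highest member. Capitals mark the 5 motifs where they occur on either strand. The windows are chr11:120484387-120484636 (plus strand) for Mrpl12, chr9:105053018-105053267 (plus) for Mrpl3, chr3:94443086-94443335 (plus) for Mrpl9, chr17:35916441-35916690 (minus) for Mrps18b and chr1:160194965-160195214 (plus) for Mrps14.
Mrpl12: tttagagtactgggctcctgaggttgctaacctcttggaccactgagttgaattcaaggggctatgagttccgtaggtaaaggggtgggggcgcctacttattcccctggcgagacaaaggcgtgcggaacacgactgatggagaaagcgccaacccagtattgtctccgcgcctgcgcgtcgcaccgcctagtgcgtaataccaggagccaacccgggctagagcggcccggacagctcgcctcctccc
Mrpl3: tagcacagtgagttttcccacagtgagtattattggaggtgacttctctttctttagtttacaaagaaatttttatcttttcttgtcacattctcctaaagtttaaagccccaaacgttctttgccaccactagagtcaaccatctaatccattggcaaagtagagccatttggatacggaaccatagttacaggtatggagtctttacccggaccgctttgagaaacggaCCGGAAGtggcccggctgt
Mrpl9: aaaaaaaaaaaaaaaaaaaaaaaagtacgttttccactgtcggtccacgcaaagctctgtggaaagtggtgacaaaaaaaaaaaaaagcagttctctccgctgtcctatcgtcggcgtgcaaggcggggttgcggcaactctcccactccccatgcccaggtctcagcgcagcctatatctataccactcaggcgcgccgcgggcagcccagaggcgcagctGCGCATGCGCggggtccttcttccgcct
Mrps18b: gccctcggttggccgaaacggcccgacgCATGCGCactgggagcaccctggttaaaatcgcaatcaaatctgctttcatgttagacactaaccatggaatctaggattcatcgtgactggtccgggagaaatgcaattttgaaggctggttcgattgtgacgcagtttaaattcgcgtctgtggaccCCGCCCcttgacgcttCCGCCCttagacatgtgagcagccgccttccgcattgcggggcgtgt
Mrps14: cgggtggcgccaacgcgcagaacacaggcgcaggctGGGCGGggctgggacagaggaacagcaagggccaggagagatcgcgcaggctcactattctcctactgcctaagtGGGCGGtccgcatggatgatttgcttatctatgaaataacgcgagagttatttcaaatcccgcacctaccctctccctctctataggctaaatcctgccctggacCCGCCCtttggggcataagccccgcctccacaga
Mrpl12 holds none of the motifs in its window. Mrpl3 holds the ETS-type motif 19 bases before its start. In Mrpl9 the 2 NRF1 matches, 1 on each strand, overlap in a palindrome that begins 28 bases before the start. Mrps18b holds 1 such match and 2 Sp1 motifs in the printed stretch, and Mrps14 holds 3 Sp1 motifs.

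Many members lie head to head with another gene. In 25 of 68 members (36.8%) a gene on the opposite strand starts within 1000 bases and points away, against 10.5% of 27025 genes. The share among the tested genes alone was not computed. In 1 case both partners are members: Mrps11 (-0.44) and Mrpl46 (-0.23) start 42 bases apart, each as a log2 difference. Mrpl47 (-0.49) faces Ndufb5 (-0.19), a subunit of respiratory complex I, and Mrps12 (-0.17) faces Sars2 (-0.087), the mitochondrial seryl-tRNA synthetase. Mrps27 (-0.48) faces Ptcd2 (-0.62), a mitochondrial protein with pentatricopeptide repeats. Of 23 measured partners 16 lay below 0 (46.1% over all genes), with a median of -0.13, and 2 of these 23 are the pair of members themselves.

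Other genes of mitochondrial translation also lay mostly below 0, and 0 of them passed the test. Over all genes 46.1% lay below 0, and 6.21% were lower and 6.47% higher at an unadjusted limma p under 0.05. Of 4 ribosomal proteins without an Mrp symbol, all 4 lay below 0 with a median log2 difference of -0.45, and 3 were lower at an unadjusted limma p under 0.05. Ptcd3, of the small subunit, was at -0.53 (limma adjusted p = 0.267) and Chchd1 had 559, 578 and 591 in UNC0638 cells, against 1049, 747 and 702 in DMSO cells (-0.50, limma adjusted p = 0.177). All 16 translation factors lay below 0 (median -0.23, 7 lower at an unadjusted limma p under 0.05). The elongation factor partners Tsfm and Tufm were at -0.46 (limma adjusted p = 0.0741) and -0.42 (limma adjusted p = 0.0995), and Gfm2, which helps recycle ribosomes, at -0.55. Of 28 assembly factors 21 lay below 0 (median -0.13, 7 lower at that unadjusted p), and Fastkd2, an RNA-binding assembly protein, was at -0.57 with UNC0638 values of 120, 207 and 227 and DMSO values of 288, 274 and 260.3. Of 19 mitochondrial aminoacyl-tRNA synthetases 15 lay below 0 (median -0.12, 6 lower at that p), Yars2 the lowest at -0.54. Of 11 genes of mitochondrial DNA upkeep and transcription 8 did (median -0.10, 3 lower and 2 higher at that p), with the topoisomerase Top1mt at -0.40. The 2 mitochondrially encoded messages measured, COX2 and ND3, were at 0.038 and 0.037 with overlapping groups, and COX2 turned to -0.0079 under median centring.

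Compared with related gene groups, the members' median of -0.22 stood beside -0.26 over 30 genes of mitochondrial protein import, -0.14 over 84 nuclear genes of the respiratory chain and -0.12 over 59 cytosolic ribosomal proteins. These differences between groups were not tested. Over all genes 46.1% lay below 0, and 6.21% were lower and 6.47% higher at an unadjusted limma p under 0.05. In the import group 28 of 30 lay below 0 and 1 fell: Timm9, a chaperone of the intermembrane space, had 175, 154 and 161 in UNC0638 cells, against 252, 258 and 226 in DMSO cells (log2 difference -0.54, limma adjusted p = 0.0378). At an unadjusted limma p under 0.05, 14 of the 30 import genes were lower and 0 higher. The lowest difference in this group was -0.84, in a gene that was not called. In the respiratory chain 70 of 84 lay below 0 and 0 were called (13 lower and 1 higher at an unadjusted limma p under 0.05), with the complex I subunit Ndufs6 at -0.49 (limma adjusted p = 0.312). Of the cytosolic ribosomal proteins 53 of 59 lay below 0 and 0 were called (8 lower and 1 higher at that unadjusted p), with Rpl12 at -0.41 (limma adjusted p = 0.326). The UNC0638 arrays ranked differently in these groups. On UNC0638 replicate 1 the average deviation was -0.15 for the members but -0.020 for the respiratory chain and -0.014 for cytosolic ribosomal proteins, whereas on replicate 3 it was -0.23, -0.22 and -0.23.

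**Figure D4:**
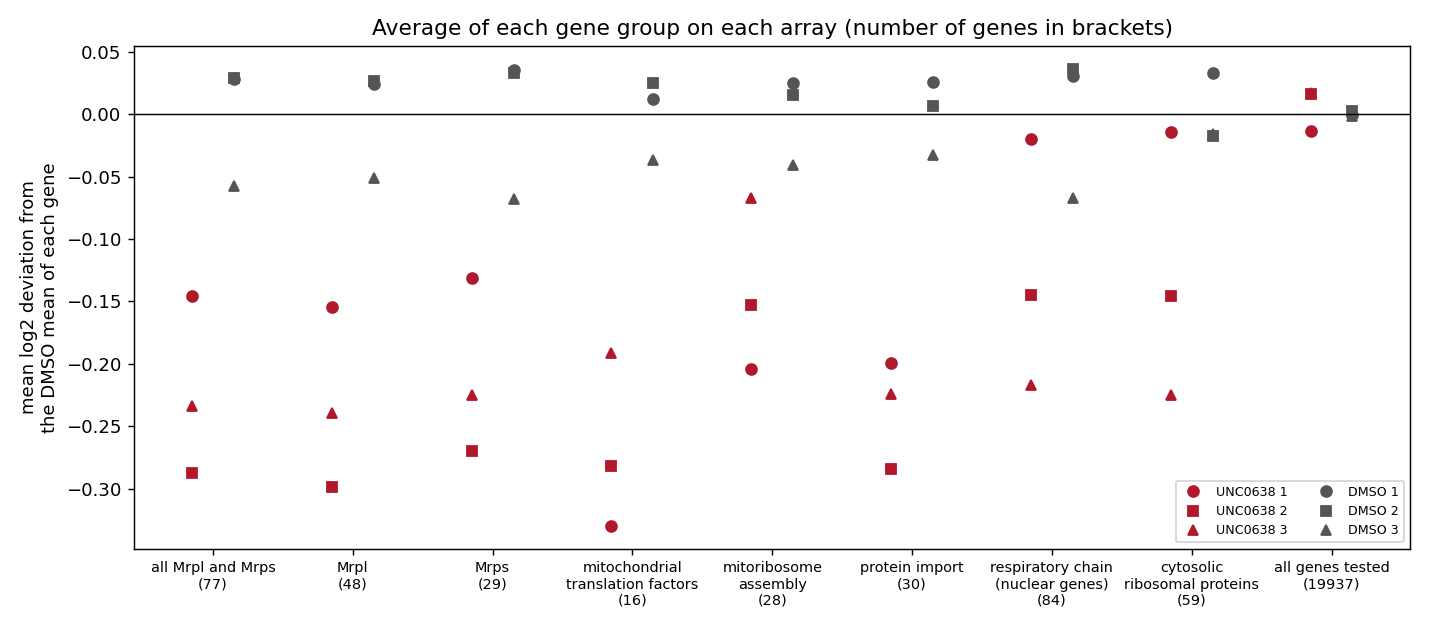
Mean log2 deviation from each gene's DMSO mean on every array, for the Mrpl and Mrps genes and 5 related groups and for all genes tested, with UNC0638 arrays in red left of DMSO arrays in grey. For the members the UNC0638 arrays sit between -0.29 and -0.15 and the DMSO arrays between -0.057 and 0.029.

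**Figure D5:**
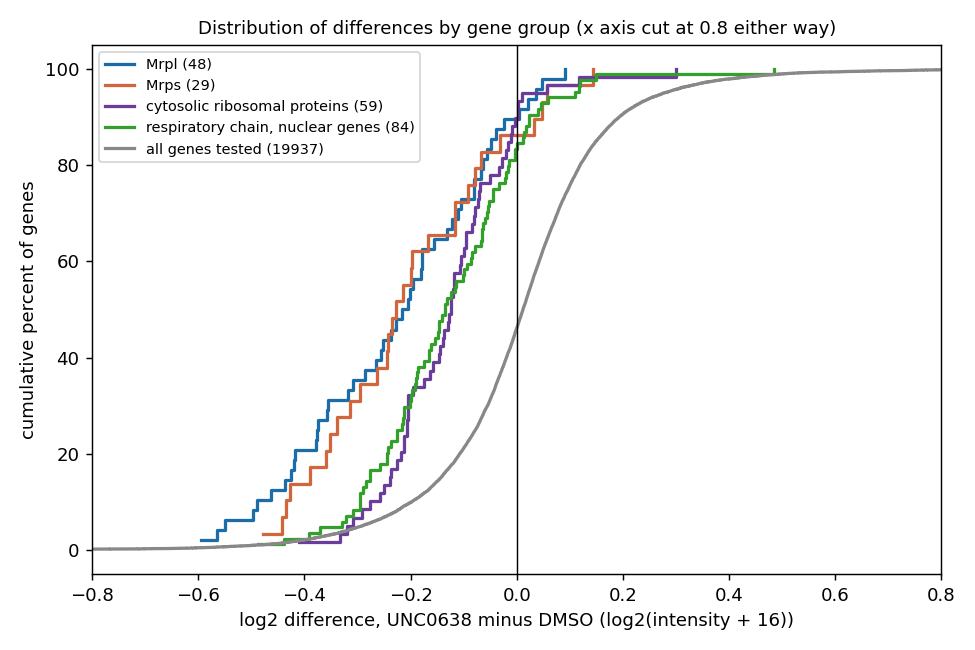
Cumulative percent of genes by log2 difference (UNC0638 minus DMSO) for Mrpl genes, Mrps genes, cytosolic ribosomal proteins, nuclear respiratory chain genes and all genes tested. The Mrpl and Mrps curves lie close together, with medians of -0.21 and -0.23, left of the curve of all genes, whose median is 0.012.

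Among known regulators of such genes 0 of 12 passed the limma test and 1 was lower at an unadjusted p under 0.05, against 6.21% of all genes. Myc, a transcription factor that activates ribosomal and mitochondrial genes, had 2026, 2331 and 2257 in UNC0638 cells, against 2963, 3251 and 2823 in DMSO cells (log2 difference -0.45, limma adjusted p = 0.0808, and 0.0399 with a trended robust prior). In the other alternatives its limma adjusted p did not pass, from 0.0703 with median centring to 0.23 without DMSO replicate 2. Nrf1 was at -0.14 (limma adjusted p = 0.571) and Gabpa, an ETS factor, at -0.082 (limma adjusted p = 0.809), both with overlapping groups.

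Array medians ran from 52.7 to 54.9 in UNC0638 cells and from 50.4 to 52.5 in DMSO cells. UNC0638 replicate 1 gave the highest of the 3 UNC0638 values in 42 of the 77 members (54.5%), against 24.4% of all genes. The progenitor markers of the labelled cells were present, with 0 of 14 called by limma and 2 higher at an unadjusted p under 0.05 (6.47% of all genes): Kit averaged 364 ± 64.5 in UNC0638 cells and 351 ± 7.66 in DMSO cells, and Mpo 6322 ± 148 and 6031 ± 191 (SD, n = 3 each), while Cd34 was at 0.27 (limma adjusted p = 0.177), Hoxa9 at -0.12 and Meis1 at 0.0036. As the cells were transformed with HoxA9 and Meis1, the signal of these 2 genes can come from the introduced copies. Kit was at 0.033, but at -0.012 with median centring. Some markers of other cells moved with the treatment, and over all genes 0.371% were called higher and 0.301% lower. Of 14 mature neutrophil markers 4 rose, among them Cxcr2 (1.23) and Chil3 (1.06), and their summed intensity was 19753 to 22676 in UNC0638 cells and 16106 to 17038 in DMSO cells. Of 13 monocyte and macrophage markers 3 rose, among them Itgax (0.77) and Gpnmb (0.67), with sums of 13937 to 14490 in UNC0638 cells and 9605 to 12013 in DMSO cells. In this list 2 markers lay below 0, the lowest at -0.35, and 1 was lower at an unadjusted limma p under 0.05. Of 9 mast cell and basophil markers 2 rose, Cma1 (0.73) and Tpsb2 (0.69), with sums of 10408 to 11422 in UNC0638 cells and 8323 to 9885 in DMSO cells. In this list 1 marker lay below 0, at -0.12. Of 7 erythroid and megakaryocyte markers 1 fell, Ppbp (-1.84), with sums of 2166 to 2330 in UNC0638 cells and 3347 to 4111 in DMSO cells. In this list 4 markers lay below 0 and 3 above, with a median of -0.079, and 3 were lower at an unadjusted limma p under 0.05. Of 11 lymphoid and 11 stromal markers 0 were called, with sums of 349 to 403 and 1386 to 1420 in UNC0638 cells and 318 to 330.1 and 1351 to 1381 in DMSO cells. Cd79b, of B cells, was at 0.35 (limma adjusted p = 0.127) and Krt8, of epithelia, at 0.23 (limma adjusted p = 0.453), and at an unadjusted p under 0.05 there were 4 higher lymphoid and 1 higher stromal markers. The lowest value over all probe sets was 2.74 to 2.98 on the 6 arrays, so a value above 0 does not show that a marker is expressed. Cd79b averaged 60.9 in UNC0638 cells and 44.5 in DMSO cells, near the array medians. Of 25 cell cycle genes 23 lay below 0 with 0 called (median -0.19, 10 lower at an unadjusted limma p under 0.05). Over all genes 46.1% lay below 0 and 6.21% were lower at that p. The clamp loader subunit Rfc4 was at -0.50 (limma adjusted p = 0.0568, and 0.0477 without the dimmest 40% of genes). For Rfc4 the other alternatives did not pass, with a limma adjusted p from 0.0512 with quantile normalization to 0.197 without UNC0638 replicate 2. The part of these cells and of proliferation in the members' values was not tested.

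In 8 members more than 1 probe set carries the symbol, and in 7 of these the probe sets had the same sign. Such genes can have near-identical copies elsewhere, whose signal the probes could share, and their values are uncertain to that extent. The probe set used lay above the other for Mrpl27 (-0.18 and -0.41), Mrpl51 (-0.048 and -0.27), Mrpl23 (-0.32 and -0.41) and Mrps33 (-0.031 and -0.15). It lay below the other for Mrpl47 (-0.49 and -0.27) and Mrps5 (-0.34 and -0.24). For Mrpl41 the 2 were at 0.021 and 0.019, and for Mrps36 at 0.057 and -0.014.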

How the data were processed

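Labelled cRNA (from 6 ug total RNA, Trizol extraction) was hybridised to Affymetrix arrays, per the labels' protocols. The authors deposited 1 processed intensity per probe set and array. How they corrected background, summarised probes and scaled arrays is not given here. The values are linear and were used as deposited.

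Of 34760 probe sets, 21640 carry 1 gene symbol, 1321 several and 11799 none. Entrez numbers of 21553 were found in the GRCm38.p6 gene table, with 0 symbols changed. Each gene was represented by its brightest probe set over all arrays, leaving 19937 genes with no filter on dim genes. UNC0638 (3 arrays) was compared with DMSO (3 arrays) on log2(intensity + 16) with limma 3.58.1 in R 4.3.3 (lmFit, eBayes, two-sided, Benjamini-Hochberg over all genes, threshold 0.05). The pseudocount understates differences of dim genes. Array number limits the precision. Each of 10 simulated data sets held 19937 genes, 200 of them changed by a log2 of 0.5, 1, 2 or -1. Of genes changed by 0.5, 45.6% were called, and 4.34% of all calls were false. Noise was drawn separately for each gene, without shifts shared between genes, so the rates in the real data may differ. Replicate numbers repeat across groups. Deviations of same-numbered arrays from their group means correlated at -0.066, 0.11 and 0.017, so the numbers were not taken as pairs.

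Members and lists were chosen with earlier results of these data known, so lists are described by counts and medians without a test. Places in the ribosome and ancestry were assigned by hand from general knowledge of mitochondrial ribosome structures. Genes named are the members past the threshold, the 8 Mrpl and 6 Mrps genes with the lowest and the 4 members with the highest differences, Mrpl12, Mrps18a, Mrps30, Mrps36, members whose probe sets differ in sign, up to 2 rises and 2 falls past the threshold per list or else its largest change, and 5 cell markers. The remaining genes named were chosen after their values were seen. Alternatives were quantile normalization, median centring, pseudocounts of 1 and 64, a filter on the dimmest 40%, the mean of probe sets, the replicate block, a trended robust prior, array weights, each array left out, and the subunit from structure. Figures used matplotlib 3.10.9.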

Additional observations from a re-analysis of the deposited data

How the results depend on the processing

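Of 15 settings applied to all genes, 58 of the 77 members kept a difference below 0 in each and 3 kept one above 0, while 16 took either sign. The median over members ran from -0.27 to -0.18. Members called lower dropped to 0 with a pseudocount of 1 or 64, with the replicate block and without each array in turn (0 in each case). All genes called went from 134 to 49 with a pseudocount of 64, to 73 with the replicate block, and to between 10 and 69 without each array. With the replicate block Mrpl12 had an adjusted p of 0.0788, and arrays of 1 number did not each correlate best. Members lower at an unadjusted p under 0.05 numbered 18 to 34 without each array, lowest without UNC0638 replicate 2, with 20 without DMSO replicate 1 and 21 without DMSO replicate 2, against 32 with all arrays. Large minus small was 0.00028 with quantile normalization, -0.0032 with a pseudocount of 64, -0.0011 with array weights and -0.027 to 0.051 without each array. Among the genes named by the rule given above, signs turned when 1 array was left out for Mrps10 (-0.044 to 0.096, below 0 without UNC0638 replicate 2), Mrps18a (-0.15 to 0.043, above 0 without UNC0638 replicate 3), COX2 (-0.053 to 0.12), Kit (-0.046 to 0.18) and Meis1 (-0.0095 to 0.017). Other members with printed values also took either sign over the 15 settings: Mrpl10 (-0.075 to 0.036), Mrpl32 (-0.17 to 0.064), Mrpl41 (-0.033 to 0.095), Mrpl48 (-0.031 to 0.099), Mrpl51 (-0.22 to 0.095) and Mrps33 (-0.091 to 0.031). With median centring COX2 was at -0.0079, Kit at -0.012 and Meis1 at -0.042. Fewer arrays lower the power of the test, and the cause of the other changes was not tested. No member has a pseudogene symbol, so leaving these out changed nothing.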

Other observations

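The probe set shared by Mrpl53 and Ccdc142 had intensities of 105.8, 105.7 and 93.01 on the UNC0638 arrays and 112.6, 102.6 and 95.98 on the DMSO arrays, a log2 difference of -0.027 with overlapping groups. It belongs to neither gene alone and entered no test.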
